A study of Mus musculus with 59 samples.

Results

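Collagen genes were selected by symbol, as every gene whose name is Col, a number, the letter a and a number, which gave 42 of the 19613 genes measured. They were followed in 59 arrays of mouse embryoid bodies, which are aggregates of differentiating embryonic stem cells, here made to contain spinal motor neurons from a stem cell line with a fluorescent reporter of the motor neuron gene Hb9. The aggregates were kept for 24 h with serum of mice that carried a mutant human SOD1 transgene, a model of amyotrophic lateral sclerosis sampled before symptoms (29 arrays, carrier serum), or with serum of littermates without the transgene (30 arrays, non-carrier serum). All donors were F1 mice of C57BL/6 and SJL, and per the methods they were males. The transgene was in the serum donors only, so no cell on the arrays carried it. The labels give a time of 10 weeks for the 6 arrays of 1 run and of 9 weeks for the other 53, and call it a culture time. Per the methods, however, the embryoid bodies were plated after 6 days of differentiation and then kept 24 h with serum, so weeks of culture do not match them. The ages that the methods give for the serum donors span about these weeks. The weeks are therefore read here as donor age, although the labels do not say so. The labels name no batch, so runs were read from the titles, by a shared word or by neighbouring numbers, which gave 9 runs, called motorneuron, HB9MNs, A to F and 10-week. A run need not be 1 batch of embryoid bodies. Run C has 11 arrays, more than the methods give for 1 batch, so it may hold more than 1. Both kinds of serum were present in every run. Whether arrays of 1 kind of serum came from separate mice is not given for each array, so the p-values measure the spread between these arrays.

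Collagens are proteins of the extracellular matrix in which 3 chains wind into a triple helix, and each chain has a gene of its own. Fibrillar collagens form the fibrils of skin, bone and cartilage, type IV collagens form the sheet-like network of basement membranes, and the other classes coat fibrils, anchor cells or span the cell membrane. The chains are modified, folded and exported by dedicated enzymes and chaperones before they assemble outside the cell. In the embryo most fibrillar collagen is made by mesenchymal cells, whereas basement membrane collagen is made by many epithelial, endothelial and endoderm cells, and basement membranes also surround the neural tube.

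The type IV genes Col4a1 and Col4a2, which encode the chains of the most widespread basement membrane network, are shown by sequence because they stood together in the results and lie head to head on chromosome 8. In RefSeq on GRCm38.p6, Col4a1 starts at position 11312826 on the minus strand and Col4a2 at position 11312805 on the plus strand, so that the first 22 bases of the annotated transcripts overlap on opposite strands. The window from 250 bases before to 50 bases after the start was chr8:11312777-11313076 for Col4a1 and chr8:11312555-11312854 for Col4a2. The 78 bases that both windows hold, chr8:11312777-11312854, are in capitals, and each window is written 5′ to 3′ on its own gene's strand, so that the capitals of the windows are reverse complements of each other.
Col4a1: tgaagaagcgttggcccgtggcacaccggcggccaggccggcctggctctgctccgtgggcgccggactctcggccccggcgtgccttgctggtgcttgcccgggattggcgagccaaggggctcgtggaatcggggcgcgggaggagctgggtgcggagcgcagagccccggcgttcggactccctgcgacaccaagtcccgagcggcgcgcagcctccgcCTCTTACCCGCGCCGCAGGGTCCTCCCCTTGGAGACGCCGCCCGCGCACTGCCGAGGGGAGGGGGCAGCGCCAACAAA
Col4a2: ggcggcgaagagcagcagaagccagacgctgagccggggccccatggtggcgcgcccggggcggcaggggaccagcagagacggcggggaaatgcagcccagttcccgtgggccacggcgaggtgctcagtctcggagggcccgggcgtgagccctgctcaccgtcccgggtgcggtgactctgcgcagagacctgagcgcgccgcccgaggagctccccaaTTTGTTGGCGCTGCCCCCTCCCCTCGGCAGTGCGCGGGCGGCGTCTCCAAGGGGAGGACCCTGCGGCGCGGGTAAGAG
The windows had a G and C content of 74.0% for Col4a1 and 73.7% for Col4a2, against a median of 52.7% over 32851 windows of 300 bases. The letters CCAAT occurred once in the Col4a1 window on the opposite strand and once in the Col4a2 window on its own strand, and 37.4% of all windows held them on either strand. The letters GGGCGG occurred 1 time in the Col4a1 window, on the opposite strand, and 3 times in the Col4a2 window, 2 of them on its own strand, and 35.7% of all windows held them. Col4a5 and Col4a6, the other type IV pair with both starts in the table, also point away from each other on chromosome X, with 1342 bases between the starts. Of the 42 collagens, 34 had a window in the table.

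The collagens were measured at intermediate to low intensity. Mean log2 intensity over the 59 arrays ran from 5.98 for Col8a1 to 8.81 for Col8a2, and the median over the collagens was 7.05, against 7.32 over all genes. Because the probes differ between genes, these levels do not rank the genes. As a reference for dim signal, the 1032 olfactory receptor genes (Olfr), which are not known to be used in this tissue, were taken from the same arrays, and a gene was called dim at or under the 95th percentile of their mean log2 intensities, 6.31. By this measure 4 collagens were dim, which were Col4a6, Col6a6, Col8a1 and Col14a1, although the 99th percentile would take in 28 and the 90th percentile none. Collagens are often read as a sign of non-neural mesenchymal cells. The levels of cell type markers are given beside them, but they cannot show which cells made the collagens. Of 10 markers of mesenchyme and fibroblasts, 8 were dim, among them Pdgfra (5.76), Prrx1 (6.01) and Lum (4.55), and those above the dim level were Twist2 (8.11) and Dcn (7.59). Endothelial markers were dim in 5 of 6, extraembryonic endoderm markers in 5 of 8, cartilage markers in 4 of 6 and mural and smooth muscle markers in 3 of 6. Markers of neural crest and Schwann cells were dim in 3 of 6, and those of pluripotent cells in 2 of 4. None of 6 neural progenitor markers, 5 motor neuron markers or 3 neuron markers was dim. These are means over all runs, and the dim level compares different probes. In the 10-week run Dcn reached 10.03 to 10.33. The genes are called collagens here, and whether their levels follow mesenchymal cells was not tested. In these bulk samples fewer cells of a type and less RNA per cell cannot be told apart.

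Median intensities of the arrays spanned 151 to 183 for carrier serum and 153 to 177 for non-carrier serum, and no arrays were identical. By run they were highest in the motorneuron run, at 164 to 183, and lowest in run E, at 151 to 158. Precision is limited by how many arrays there are. The median log2 intensity of the Olfr genes, which follows the dim end of an array, had a lowest, median and highest value of 4.32, 4.56 and 5.0 with carrier serum and 4.32, 4.51 and 4.83 with non-carrier serum. An array of run C (non-carrier array 14) and an array of run E (carrier array 23) stood apart by Grubbs' test on their mean correlation with the arrays of their run (0.99 and 0.979).

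Collagen level varied with the run. Every collagen differed between runs (42 of 42, limma's moderated F test, highest adjusted p = 8.8e-06 for Col4a3), but so did 94% of all genes, and the count alone does not set the collagens apart. The share of a collagen's variance that lay between runs had a median of 70.7%, from 46.8% for Col4a3 to 92.6% for Col4a1. The median was 62.5% over all genes and 30.7% over the Olfr genes. Over 9523 other genes of the collagens' intensity range it was 67.1%, which is closer to that of the collagens. The difference between the highest and the lowest run mean had a median of 0.74 log2 units. With the Olfr median of each array as a covariate, the median share was 64.9% for collagens and 57.3% for all genes. Under that covariate the share of Col4a3 was 21.7%, and Col4a3 no longer passed the adjusted p between runs.

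The collagens mostly shared 1 run profile. In 37 of 42 the highest run mean was in the motorneuron run, against 48.9% of all genes, and in 31 of 42 the lowest was in run E, against 30.8% of all genes. The Olfr genes also had their highest mean in the motorneuron run in 62.9% of cases, and the mean of their array median was 4.84 there and 4.45 to 4.61 in the other runs. In run E, where collagens were lowest, that mean was 4.58. The array medians were also highest in the motorneuron run and lowest in run E, as given above. The part of array signal in the collagen profile was not tested. With each array centred on its median, 33 collagens were highest in the motorneuron run, against 34.9% of all genes, and after quantile normalization 29, against 29.6%. Without the motorneuron run the median share of variance between runs was 53.6% for the collagens. The share of all genes without that run is not given here, so this fall does not set the collagens apart.

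**Figure D1:**
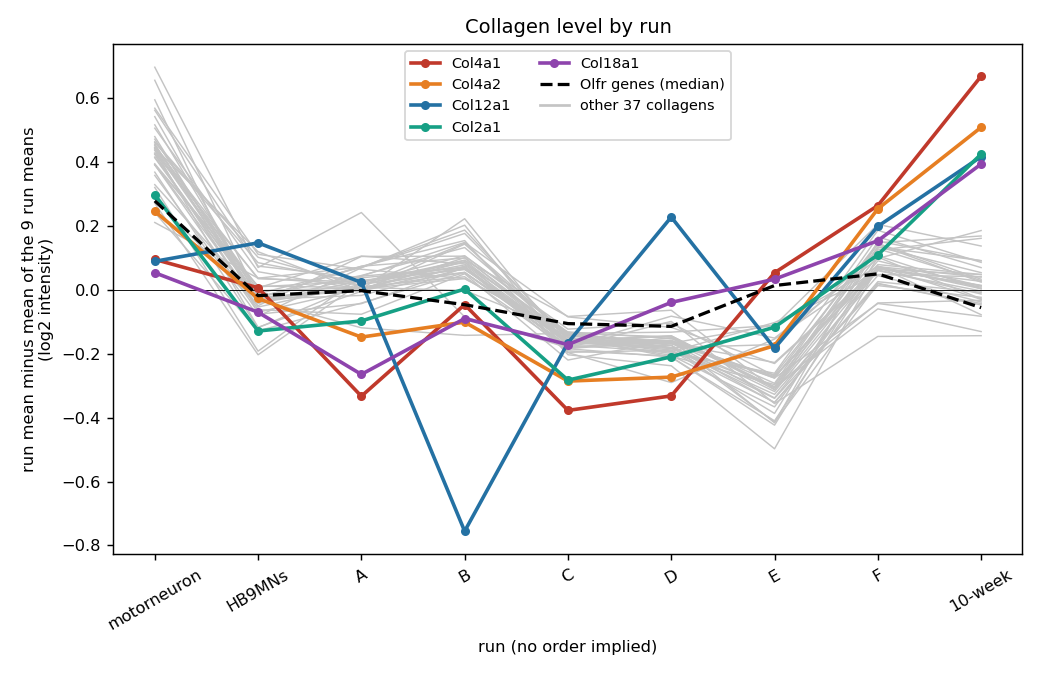
Mean log2 intensity of each of the 42 collagens in each of the 9 runs (x axis), as the difference from that gene's mean over the run means (y axis, log2 units), with the median of the Olfr genes as a dashed line. Grey lines peak in the motorneuron run and are mostly lowest in run E, whereas the 5 coloured genes are highest in the 10-week run.

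The fibrillar genes show the common profile. Col1a2, the second chain of type I collagen, had run means of 7.60 ± 0.21 (SD, n = 7) in the motorneuron run, 7.30 ± 0.10 (n = 6) in run B and 6.88 ± 0.06 (n = 6) in run E, with 7.07 ± 0.10 (n = 6) in the 10-week run. Col3a1, the only chain of type III collagen, which lies beside type I in soft tissue, went from 7.69 ± 0.15 (SD, n = 7) in the motorneuron run to 6.77 ± 0.16 (n = 6) in run E. The arrays of these runs did not overlap for either gene, from 7.25 up against 6.98 and below for Col1a2, and from 7.42 up against 6.95 and below for Col3a1. Among the fibril-associated collagens, Col20a1 had 81.0% of its variance between runs and a mean of 7.64 ± 0.13 (SD, n = 7) in the motorneuron run against 6.76 ± 0.12 (n = 6) in run E. Col5a2 and Col6a1, chains of the fibril-nucleating type V and of the beaded filament type VI, were among the non-dim collagens with the lowest shares (60.2% and 61.0%).

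A group of 5 collagens departed from this profile and was highest in the 10-week run, against 6.8% of all genes that were. They were Col4a1 and Col4a2, Col18a1, a basement membrane collagen whose end piece is endostatin, Col2a1, the fibrillar collagen of cartilage, and Col12a1, which binds to the surface of type I fibrils. Col12a1 was named after its values were seen. All 5 were also highest in the 10-week run with centred arrays and after quantile normalization, where Col5a1 and Col5a2 joined them.

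Col4a1 had the strongest dependence on the run of all collagens (92.6% of variance, limma F test adjusted p = 4.7e-24), and 1.07% of all genes had a higher share. Its 6 arrays of the 10-week run read 8.03, 8.13 and 8.04 with non-carrier serum and 8.18, 8.11 and 8.09 with carrier serum, and no array of another run was above 7.80. Run means of Col4a1 were 7.05 ± 0.11 (SD, n = 11) in run C, 7.10 ± 0.06 (n = 6) in run A, 7.48 ± 0.05 (n = 6) in run E, 7.69 ± 0.07 (n = 6) in run F and 8.10 ± 0.06 (n = 6) in the 10-week run. The span from run C to the 10-week run was 1.05 log2 units. Its share did not fall when the Olfr median was a covariate (92.8%).

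Col4a2 followed its partner at a smaller span. Its arrays of the 10-week run read 7.55, 7.67 and 7.67 with non-carrier serum and 7.86, 7.69 and 7.78 with carrier serum, with a run mean of 7.70 ± 0.10 (SD, n = 6), against 6.91 ± 0.11 (n = 11) in run C. The highest array elsewhere was 7.65, so the 10-week arrays overlapped those of other runs. The share of variance between runs was 85.7% (adjusted p = 1.1e-18, limma F test).

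Col18a1 resembled Col4a1, with 89.0% of its variance between runs (adjusted p = 1.6e-19, limma F test). Its 10-week arrays read 8.10, 8.25 and 8.23 with non-carrier serum and 8.26, 8.22 and 8.14 with carrier serum, and all other arrays were at or below 8.01. The lowest run mean was 7.54 ± 0.07 (SD, n = 6) in run A. Col4a1 and Col18a1 were the 2 of 42 collagens whose 10-week arrays all lay above every other array, against 0.928% of all genes.

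Col2a1 was high in the 10-week run (8.41 ± 0.09, SD, n = 6) and also in the motorneuron run (8.28 ± 0.14, n = 7), and low in run C (7.70 ± 0.11, n = 11). Its 10-week arrays, from 8.34 to 8.56, overlapped those of the motorneuron run, which reached 8.46. Col12a1 had its highest mean in the 10-week run (8.34 ± 0.10, SD, n = 6) and its lowest in run B (7.16 ± 0.16, n = 6). The highest array of run B was at 7.43 and those of the other runs began at 7.34, so that run B lay apart from almost all of them. The other type IV chains did not share the pattern: Col4a3, Col4a4, Col4a5 and the dim Col4a6 were all highest in the motorneuron run. The 10-week label and the run are the same 6 arrays and cannot be told apart.

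Basement membrane partners, the laminins, nidogens and proteoglycans that bind the type IV network, were also often highest in the 10-week run (9 of 12, against 6.8% of all genes). The nidogen genes Nid1 and Nid2 had all their 10-week arrays above every other array, with run means of 7.65 and 8.39 there and at most 7.25 and 7.99 elsewhere. Lamc1, the common laminin gamma chain, had 91.4% of its variance between runs and means from 8.18 in the motorneuron run to 8.98 in the 10-week run. Hspg2, which encodes perlecan, read 8.12 in the 10-week run and 7.53 in run C. Of the 16 other interstitial matrix genes, 8 were highest in that run, against the same 6.8%, among them Fn1, which encodes fibronectin. These genes were named after their values were seen. The summed intensity of the 10 mesenchyme markers, on a log2 scale, was 10.83 in the 10-week run and 9.57 to 10.27 in the others, and Dcn, the decorin gene that is in this list, went from 6.16 in the motorneuron run to 10.16. Only 1 of the 10 markers was highest in the 10-week run, and 6 were highest in the motorneuron run, so the sum follows Dcn and not most of the list. The summed endothelial markers were 9.14 in the 10-week run and 9.18 in the motorneuron run, with 8.60 to 8.99 in the others. Of these 6 markers, 5 of them dim, 4 were highest in the 10-week run and 2 in the motorneuron run. Of all genes 6.8% and 48.9% were. Their part in the type IV pattern was not tested.

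**Figure D2:**
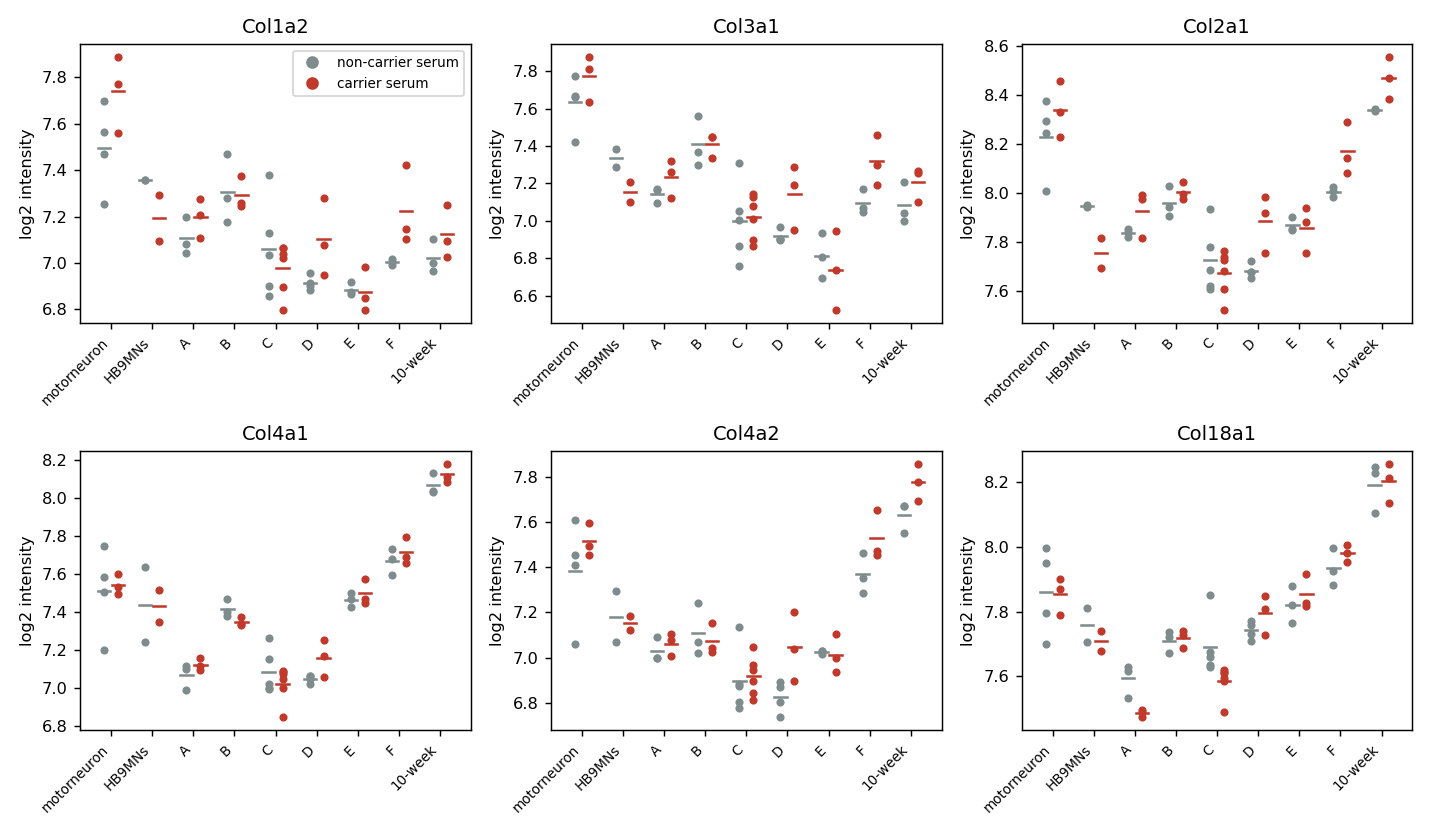
Log2 intensity (y axis) of 6 collagens in every array, by run (x axis) and kind of serum (grey, non-carrier; red, carrier), with the mean of each group as a short line. Col4a1 and Col18a1 of the 10-week run lie above all other arrays, and within runs the kinds of serum mostly overlap.

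The kind of serum answers the question of the design, whether serum of carrier mice changes the level of a gene. No collagen passed the threshold on the adjusted p (0 of 42, limma with the run as a block, adjusted over all genes), against 2.33% of all genes. At an unadjusted p under 0.05, limma found 25 collagens higher and 1 lower with carrier serum, where all genes gave 12% and 8.68%. The lowest adjusted p was 0.0713, for Col23a1, a transmembrane collagen (change of 0.10 ± 0.033, SE, 29 and 30 arrays), named after its values were seen. The count depended on the fit: with the 4 motor neuron genes of the study's batch correction (Olig2, Mnx1, Isl1 and Lhx3) as covariates, 39 of 42 collagens passed, all higher, and 31.2% of all genes did. Without run C 7 of 42 collagens passed, against 8.16% of all genes. With run C, which may hold more than 1 batch, parted into 2 blocks, 0 of 42 passed, against 3.30% of all genes. Without the HB9MNs run 2 of 42 passed, against 3.20% of all genes, which is near the background.

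The changes were small and nearly all of 1 sign. The fitted change was above 0 in 40 of 42 collagens, against 61.1% of all genes, and this count was 40 of 42 with centred arrays and after quantile normalization as well. The median was 0.078 log2 units, against 0.016 over all genes and 0.010 over 9523 other genes of the same intensity range. The Olfr genes had a median change of 0.060, with 80.2% above 0, so the dim end of the arrays moved in the same direction. With the Olfr median of each array as a covariate, the median change of the collagens was 0.014, 32 of 42 were above 0, and 1 of 42 had an unadjusted p under 0.05, against 9.91% of all genes. Under that covariate none passed the adjusted p in limma. This covariate was chosen after the data were seen.

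Runs did not share the sign. The median collagen difference was 0.28 in run F, 0.22 in run D, 0.14 in the motorneuron run, 0.10 in the 10-week run and 0.077 in run A. It was 0.028 in run E, -0.003 in run C, -0.008 in run B and -0.19 in the HB9MNs run, where 1 of 42 collagens was higher. The Olfr genes differed by 0.17 in run F, 0.084 in run D, 0.061 in the motorneuron run, 0.082 in the 10-week run and 0.11 in run A. They differed by 0.17 in run E as well, where the collagen difference was small, by 0.012 in run C, 0.00021 in run B and -0.097 in the HB9MNs run. A test of whether the serum change itself differed between runs called no collagen (0 of 42, limma's F test of the interaction, against 0.127% of all genes). The lowest adjusted p of that test was 0.271, for Col5a2, and 6 collagens had an unadjusted p under 0.05. Col5a2 ranged from -0.26 in the HB9MNs run to 0.30 in run F.

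**Figure D3:**
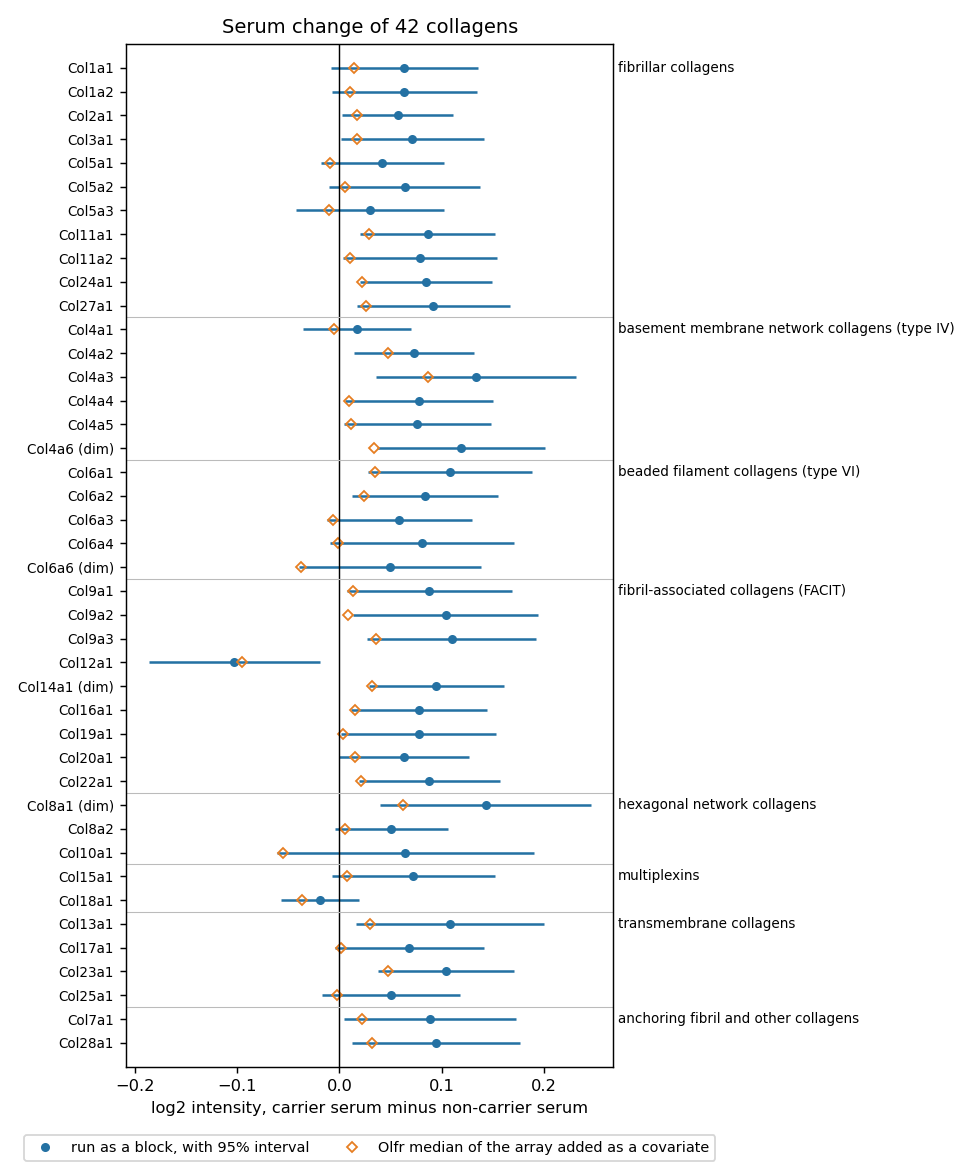
Serum change of each collagen, carrier minus non-carrier serum, in log2 units (x axis), grouped by class (y axis), with the fit that has the run as a block and its 95% interval (blue) and the fit that adds the Olfr median of each array (orange diamonds). All but 2 blue points lie right of 0, and most orange points lie closer to 0.

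By class, all 11 fibrillar collagens had a change above 0 (median 0.064, 6 with an unadjusted p under 0.05 in limma). For Col1a1, the main chain of type I collagen, the lowest, median and highest values were 7.07, 7.51 and 8.25 with carrier serum and 7.18, 7.45 and 8.10 with non-carrier serum. The groups overlapped almost wholly, and the change was 0.064 ± 0.036 (SE, 95% interval from -0.009 to 0.14, limma adjusted p = 0.299), higher in 5 of 9 runs. Col1a2 gave the same size (0.064 ± 0.035, adjusted p = 0.289), from 6.80, 7.10 and 7.89 with carrier serum against 6.86, 7.04 and 7.70. Col3a1 read 6.52, 7.19 and 7.88 with carrier serum and 6.70, 7.08 and 7.78 with non-carrier serum, a change of 0.071 ± 0.035 (adjusted p = 0.233, limma). Changes of type I and type III chains thus did not pass the adjusted p, although the 95% interval of Col3a1, from 0.001 to 0.14, lay above 0. Col2a1 changed by 0.057 ± 0.027 (adjusted p = 0.219, limma) and Col5a2 by 0.064 ± 0.037 (adjusted p = 0.308).

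All 6 type IV genes were above 0 (median 0.077), 5 of them with an unadjusted p under 0.05 in limma, and the exception was Col4a1. Its lowest, median and highest values were 6.84, 7.35 and 8.18 with carrier serum and 6.99, 7.39 and 8.13 with non-carrier serum, a change of 0.018 ± 0.026 (95% interval from -0.035 to 0.070, limma adjusted p = 0.714). For Col4a2 the values were 6.81, 7.10 and 7.86 against 6.74, 7.07 and 7.67, and the change was 0.073 ± 0.029 (adjusted p = 0.151, limma). Col4a3, a chain of the kidney and lung basement membrane, had the largest change of a non-dim collagen, 0.13 ± 0.049 (adjusted p = 0.119, limma), from 6.00, 6.46 and 7.27 against 6.03, 6.38 and 6.87. The highest of these values is a single array, carrier array 21 of run E. Another carrier array of that run read 6.00, the lowest of all. Col4a6 changed by 0.12 ± 0.041 (adjusted p = 0.0978, limma) but was dim.

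In the remaining classes the picture was similar. All 5 type VI collagens were above 0 (median 0.081), with Col6a1 at 0.11 ± 0.040 (adjusted p = 0.121, limma). Of the 9 fibril-associated collagens 8 were above 0 (median 0.088), with Col20a1 at 0.063 ± 0.032 (adjusted p = 0.244, limma). The exception was Col12a1, at -0.10 ± 0.042 (adjusted p = 0.160, limma), lower in 7 of 9 runs and the collagen that kept an unadjusted p under 0.05 with the Olfr covariate (p = 0.0381). The 3 hexagonal network collagens were above 0 (median 0.064), led by the dim Col8a1 at 0.14 ± 0.052 (adjusted p = 0.112, limma), the largest change of all. Of the 2 multiplexins, Col18a1 was the other collagen below 0, at -0.019 ± 0.019 (95% interval from -0.057 to 0.019, limma adjusted p = 0.564). The 4 transmembrane collagens and the 2 remaining ones, Col7a1 and Col28a1, were all above 0.

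A pair of genes of the machinery that folds the chains passed the test, both lower with carrier serum (2 lower and 0 higher of 28 measured genes for collagen synthesis, crosslinking and secretion, limma), against 2.33% of all genes in either direction. Whether these genes and the chains differed in their change was not tested. P4hb encodes protein disulfide isomerase, which forms disulfide bonds in many secreted proteins and is also the beta subunit of the collagen prolyl 4-hydroxylase. Its lowest, median and highest values were 10.07, 10.42 and 10.67 with carrier serum and 10.11, 10.51 and 10.65 with non-carrier serum. The groups overlapped across runs, but within runs P4hb was lower with carrier serum in 9 of 9, and the change was -0.097 ± 0.019 (SE, limma adjusted p = 0.00239). With the Olfr covariate it was -0.081 (adjusted p = 0.0244, limma). Serpinh1 encodes the collagen-specific chaperone HSP47. It read 9.51, 9.79 and 10.47 with carrier serum and 9.51, 9.98 and 10.51 with non-carrier serum, a change of -0.11 ± 0.029 (limma adjusted p = 0.0360), lower in 8 of 9 runs. The call of Serpinh1 was lost with the Olfr covariate (adjusted p = 0.130, limma) and on leaving out any 1 of 7 runs, with an adjusted p from 0.0518 without the motorneuron run to 0.153 without run D. P4hb lost its call without runs E and F together (adjusted p = 0.0584, limma).

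The other lists gave no call for serum in limma, with 0 of 10 collagen receptors, 0 of 12 genes of collagen degradation and its inhibitors, 0 of 16 other interstitial matrix genes and 0 of 12 basement membrane partners. Their median changes were 0.014, 0.007, 0.012 and 0.002, and that of the synthesis genes was 0.006, all below the 0.078 of the collagens and below the 0.016 of all genes. Of 60 measured markers of cell types 2 passed, which is near the 2.33% of all genes. They were Slc5a7, the choline transporter of cholinergic neurons (0.15, adjusted p = 0.0410), and Snap25, a protein of synaptic release (0.074, adjusted p = 0.0166), which were named after their values were seen. The median change of the mesenchyme markers was 0.047 and that of the endothelial markers 0.069. Most of these were dim, and their part in the collagen changes was not tested.

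Chains that assemble with each other were compared across the 59 arrays after the mean of each run and kind of serum was removed, which leaves the deviations among like arrays. In all 12 pairs the deviations were correlated (permutation test within run and serum, two-sided, 12 pairs tested, highest adjusted p = 0.0322). However, the deviations of all 861 pairs of collagens had a median r of 0.80, so a high r by itself says little of a pair. Col1a1 and Col1a2, which form the type I molecule, had r = 0.95 (Spearman's rho = 0.94, permutation p = 1e-05 for both, the smallest possible, adjusted p = 1.1e-05 for r), and 1 of 861 pairs was higher. Without the 2 arrays farthest from the median of Col1a1, r was 0.94, and within the runs of at least 6 arrays r was from 0.74 to 0.98. With the Olfr median removed as well, the median over all pairs was 0.67 and Col1a1 with Col1a2, at 0.93, was the highest of all.

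Type IX collagen came next. The deviations of Col9a1 and Col9a3, chains of the molecule that decorates cartilage fibrils, had r = 0.94 (rho = 0.93, permutation p = 1e-05), with 13 pairs higher, and Col9a1 with Col9a2 had r = 0.89. Col1a2 and Col3a1 had r = 0.87 (rho = 0.86, permutation p = 1e-05), and 212 pairs were higher. The neighbours Col4a1 and Col4a2 had r = 0.78 (rho = 0.67, permutation p = 1e-05 for r), and r was 0.68 without the 2 farthest arrays. With 472 of 861 pairs higher, the head-to-head pair of the sequences above lay near the middle of all pairs in these deviations. With the Olfr median removed its r was 0.76, and 238 of 861 pairs were higher, so its place among the pairs depended on that step. Within the 8 runs of at least 6 arrays its r was above 0 in 7, from -0.27 to 0.97. Col4a3 and Col4a4, which belong to the same molecule, had the lowest r of the 12 pairs, 0.50 (rho = 0.73, permutation p = 0.0322 for r). This value rests on single arrays, since r was 0.72 without the 2 arrays farthest from the median of Col4a3, both carrier arrays of run E. The other pairs, Col4a5 with Col4a6 (0.88), Col5a1 with Col5a2 (0.86), Col11a1 with Col11a2 (0.86), Col6a1 with Col6a2 (0.84), Col8a1 with Col8a2 (0.76) and Col2a1 with Col11a1 (0.71), lay within the range of collagens in general.

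**Figure D4:**
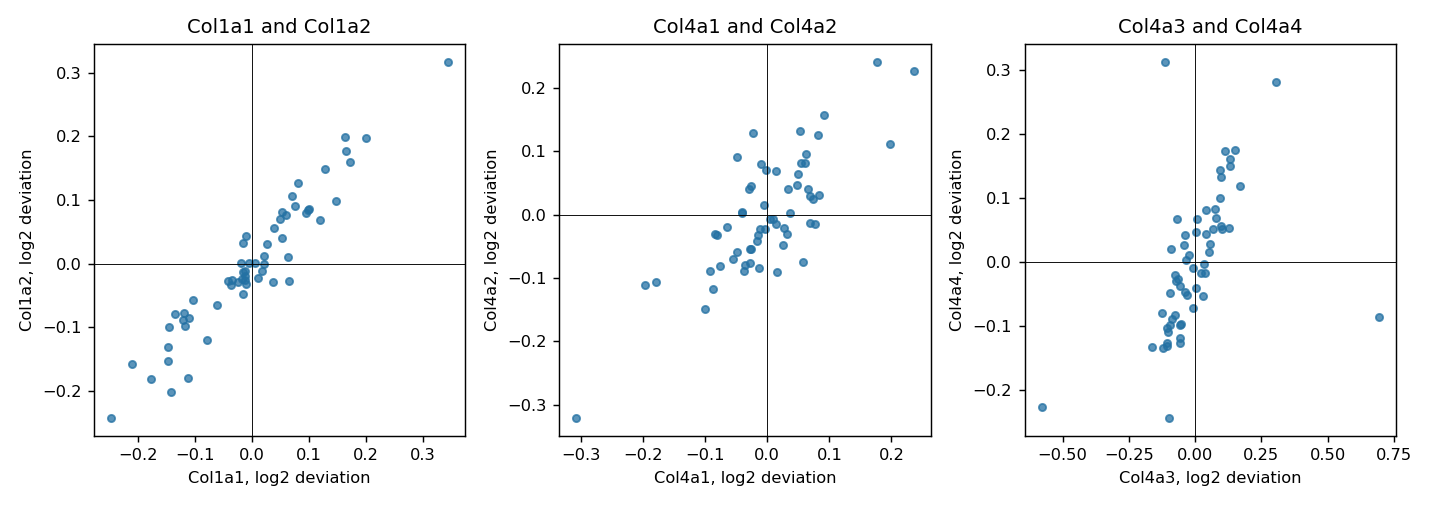
Deviation of each of the 59 arrays from the mean of its run and kind of serum, in log2 units, for the chains named on the axes. Col1a1 and Col1a2 fall close to a line (r = 0.95), Col4a1 and Col4a2 scatter more widely (r = 0.78), and Col4a3 has a pair of arrays far from the rest (r = 0.50).

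Deviations of Col1a2, Col2a1, Col3a1 and Col4a1 were set against those of 6 marker genes in the same way, which gave 24 pairs, and 16 passed (permutation test, two-sided, adjusted over the 24). The share of all genes that would pass with these collagens is not given here, so this count does not set the markers apart. The highest r was 0.67, between Col1a2 and Gata6, a factor of extraembryonic endoderm and mesoderm (rho = 0.60, permutation p = 4e-05, adjusted p = 0.00048), and r was 0.53 without the 2 farthest arrays. Within the 8 runs of at least 6 arrays it was above 0 in 7, from -0.31 to 0.88. Pecam1, an endothelial adhesion molecule that was dim here, had r = 0.66 with Col1a2 and 0.34 with Col4a1. Pdgfra, a mesenchymal receptor that was dim here, gave r between 0.16 and 0.30 with the 4 collagens and passed with none. Pdgfrb, from the list of mural and smooth muscle markers, passed with all 4. Its r was 0.59 with Col1a2, 0.58 with Col2a1, 0.41 with Col3a1 and 0.58 with Col4a1. Quantile normalization left 2 of the 24 pairs past the test and centring of each array on its median left 7, so most of these relations depended on the scaling of the arrays. The 2 pairs left by quantile normalization were those of Olig2, a neural progenitor marker, with Col1a2 (r = 0.59, against 0.48 as deposited) and Col2a1 (0.54, against 0.44). These were not stable either, since the lowest r under any alternative was 0.24 with Col1a2 and 0.17 with Col2a1. Of the 12 pairs of chains, 11 passed after quantile normalization, and the exception was Col4a3 with Col4a4 (r = 0.095, permutation test adjusted p = 0.908).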

How the data were processed

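RNA of 59 embryoid body cultures was hybridized to Affymetrix mouse exon arrays. Per the methods, the authors made the values with RMA in aroma.affymetrix and averaged the exons of each gene. What they deposited are linear intensities of 19613 genes, which were used here as log2 values, with no filter and no pseudocount (0 added). Per the methods, outlying arrays had been removed before.

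For the serum change, limma 3.58.1 (R 4.3.3; lmFit, eBayes, two-sided) was run with the 9 runs as a fixed block. The p-values were adjusted by Benjamini and Hochberg's method over the whole table, and 0.05 was the threshold. Runs and the interaction were tested with moderated F tests. Correlations used 100000 permutations within run and serum (Python 3.11.15, numpy 2.4.6).

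Named were all collagens past the adjusted p, 9 set members (Col1a1, Col1a2, Col2a1, Col3a1, Col4a1, Col4a2, Col5a2, Col6a1 and Col18a1), the 5 highest and 3 lowest non-dim shares of variance by run, the 3 largest serum changes, and list genes past the adjusted p. The members and lists were chosen with earlier results of these data known. Listed genes without a row under a current or older symbol were not used here.

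On simulated data with the same runs and groups, limma recovered 46% of genes changed by 0.1 log2 units and 86% of those changed by 0.2. The simulated noise was independent between genes, and each change was the same in every run. In the real arrays the collagen deviations were correlated, and their median serum change had an SD of 0.14 between runs. The recovered shares therefore need not hold for these data. Alternatives covered the block, 4 motor neuron genes as covariates, the scaling, a pseudocount of 16, a filter on dim genes, the variance model, array weights, each run left out and the Olfr covariate.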

Additional observations from a re-analysis of the deposited data

Results flagged for a closer look

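Each named collagen was tested in each group of 4 to 6 arrays of 1 run and 1 kind of serum, which gave 52 tests of a gene in a group. Only the motorneuron run, run C and run D held groups that large, so the other runs were not tested. In 6 of the tests an array had a gap to the nearest other array that was above Dixon's 95% critical value. Chance flags about 1 in 20 such tests, and genes of 1 array are not independent. Non-carrier array 14 of run C, which also stood apart by its correlation with its run, was the highest of 5 for Col4a2 (7.14, the next 6.88), Col18a1 (7.85, the next 7.68) and the dim Col4a6 (6.28, the next 5.91). Carrier array 14 of run C was the lowest of 6 for Col4a1 (6.84) and Col18a1 (7.49, the next 7.59). Non-carrier array 19 of run D was the highest of 4 for Col3a1 (6.97, the next 6.90). Without non-carrier array 14 and carrier array 23, the arrays called by Grubbs' test, the median serum change of the collagens was 0.082, against 0.078 with them.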

How the results depend on the processing

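The median serum change of the collagens stayed above 0 under all 23 alternatives, from 0.011 to 0.14, and with each run left out it was from 0.055 to 0.099. The number of collagens past the adjusted p, 0 in the reported fit, was 39 of 42, all higher, with the 4 motor neuron genes as covariates, where 31.2% of all genes passed. It was 18 (17 higher) with array weights, where 14.3% of all genes passed. It was 1 of 14, Col23a1, with genes under the median intensity left out, where 6.68% of all genes passed, and 2 of 42, Col14a1 and Col4a6, without the arrays called by Grubbs' test, where 3.65% did, both near the background. Leaving out each run gave 0 to 7, with 7 without run C (6 higher, and Col12a1 lower) and 2 without the HB9MNs run, where 8.16% and 3.20% of all genes passed. The cause was not tested.

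With the replicate block, on 16 arrays of 3 runs whose titles share numbers, no collagen passed (0 of 42, limma, with 0 of all genes) and the median change was 0.011. Same-numbered arrays deviated together with r from -0.13 to 0.33, so the numbers were not taken to pair the arrays. Col4a1 was at -0.0061, Col20a1 at -0.022 and Col8a1 at -0.028 with the replicate block, and Col4a1 at -0.0047 with the Olfr covariate. Col18a1 was at 0.023 with the 4 covariates and at 0.00090 without run C. P4hb was lower under all 23 alternatives (-0.12 to -0.081) and lost its call under 3, and Serpinh1 was lower under all 23 (-0.12 to -0.047) and lost its call under 14.

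All 14 collagens left by the intensity filter differed between runs. The median share of variance by run was 53.6% without the motorneuron run and otherwise 64.5% to 76.3%. Dim collagens numbered 0 at the 90th percentile of the Olfr genes and 28 at the 99th. Of the 24 pairs of a collagen and a marker, 7 passed with centred arrays and 2 after quantile normalization. After quantile normalization r was -0.077 for Col1a2 with Pdgfra, -0.21, -0.075 and -0.030 for Col2a1 with Pdgfra, Pdgfrb and Pecam1, -0.26, -0.20 and -0.054 for Col3a1 with the same genes, and -0.075 for Col4a1 with Pecam1. With centred arrays Sox9 had r = -0.027 with Col1a2 and -0.062 with Col3a1. Depth does not apply to arrays, and the dim end of the scale limits changes of the 4 dim collagens.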

Other observations

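Some genes that make, trim and link collagen were high in the 10-week run as well. Of 28 measured genes for collagen synthesis, crosslinking and secretion, 10 were highest in that run and 10 in the motorneuron run. Of all genes 6.8% and 48.9% were. In 6 of the 28 all 10-week arrays lay above every other array. Of 78 measured genes of the synthesis, receptor, degradation and matrix lists, 14 had all 10-week arrays above every other array, against 0.928% of all genes. They were P4ha3, a prolyl hydroxylase subunit (9.32 to 9.64 against at most 9.13 elsewhere), Leprel1, a prolyl 3-hydroxylase also called P3h2 (7.68 to 7.90 against at most 7.42), Bmp1, which removes the procollagen C-terminal piece (10.15 to 10.36 against at most 9.97), and Loxl2, which crosslinks type IV collagen (8.98 to 9.24 against at most 8.82). Mmp2, a gelatinase (8.22 to 8.41 against at most 7.95), and its activator Mmp14 (7.10 to 7.28 against at most 7.04) were among them, as were Glt25d2, Fkbp10, Mrc2, Fn1, Dcn, Fbn2, Nid1 and Nid2. These genes were named after their values were seen, and run and time label cannot be told apart for them.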
